A study of Mus musculus with 6 samples.

Results

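In circulating red cells, 10 genes of cellular iron handling were followed, out of 27179 genes counted: the transferrin receptor cycle (Tfrc, Snx3, Steap3, Slc11a2), ferritin and its turnover (Ftl1, Fth1, Ncoa4), the iron exporter (Slc40a1) and the iron regulatory proteins (Aco1, Ireb2). They were chosen by name for their role, and all 10 were listed in every library. The libraries came from 6 BALB/c males, 3 of them Nxf1+/C587R (the mutants, with 1 copy of a missense allele) and 3 of them Nxf1+/+ littermates (wild type). Nxf1 encodes the main receptor that carries messenger RNA out of the nucleus, and the allele is carried by the whole animal. Each of 3 labelled batches held 1 mouse of either genotype, and the labels do not say what a batch shared. Red cells were pelleted through Ficoll from heart blood, and purity was checked by flow cytometry before lysis. Age is not given in the sources used here.

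A red cell precursor takes up iron as transferrin bound to the transferrin receptor, which is brought into endosomes, where ferric iron is reduced and then moved across the membrane for heme synthesis. Iron that is not used is kept in ferritin, a shell of heavy chains, which oxidise iron, and light chains, which help it to mineralise, and ferritin is delivered to lysosomes by the receptor Ncoa4 when iron is needed. When iron is scarce, the regulatory proteins bind hairpins called iron-responsive elements, blocking translation of messages that carry one before the coding sequence and protecting the transferrin receptor message, which carries several after it. Mature red cells have no nucleus, so RNA in circulating red cells comes largely from reticulocytes, which still carry transferrin receptors and lose them as they mature.

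These hairpins are shown because they are what ferritin, ferroportin and transferrin receptor messages share. The members were chosen for known roles in iron handling, and the motif is the known one of such messages. Matches among the members are therefore no independent finding. A search of the annotated untranslated regions of protein-coding transcripts (GENCODE M21, build GRCm38, transcript strand only) looked for a C, any 5 bases, the loop CAGTGN and any 5 bases. At least 4 of the 5 bases before the loop had to pair with those after it, G with T allowed. It matched in the 5′ untranslated region of 3 members and the 3′ untranslated region of 2. Over all genes it matched in 0.985% of 20916 genes with a 5′ region and 4.14% of 21039 with a 3′ region. The sequences below are from the reference genome, which is not of the BALB/c strain, and the capitals mark the loop of 6 bases.
Ftl1, 5′ region, chr7:45459779-45459807, minus strand: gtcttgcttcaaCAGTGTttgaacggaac
Fth1, 5′ region, chr19:9982732-9982760, plus strand: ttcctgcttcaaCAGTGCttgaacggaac
Slc40a1, 5′ region, chr1:45925465-45925493, minus strand: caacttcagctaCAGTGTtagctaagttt
Slc11a2, 3′ region, chr15:100395153-100395181, minus strand: agccatcagagcCAGTGTgtttctatggt
Tfrc, 3′ region, chr16:32631219-32631247, plus strand: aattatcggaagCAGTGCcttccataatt
Tfrc, 3′ region, chr16:32631598-32631626, plus strand: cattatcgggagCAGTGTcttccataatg
Tfrc, 3′ region, chr16:32631663-32631691, plus strand: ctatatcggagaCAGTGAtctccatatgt
Tfrc, 3′ region, chr16:32631710-32631738, plus strand: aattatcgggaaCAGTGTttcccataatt
In all of these but that of Slc11a2 the 5 stem positions paired, and in Slc11a2 4 of 5 did. No match was found in Steap3, Snx3, Ncoa4, Aco1 or Ireb2. A match is a description of the sequence only. The Slc11a2 motif lay in 1 annotated transcript, and counts per gene do not tell its isoforms apart.

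Total counts ran from 14636739 to 15790336 per library, and globins took 88.1% to 89.3% of them. The cells carried erythroid RNA, with all 15 matched erythroid markers seen in every library. Hepatocyte markers (40 genes, Alb among them) summed to 2131, 4652 and 2587 counts in mutants 1 to 3 against 116, 3 and 3 in wild type 1 to 3. Pancreas markers (14 genes) had 385 counts in wild-type library 1 and at most 2 in each other library. The mutant libraries had 2103, 2353 and 2772 genes with at least 10 counts, against 4096, 2741 and 3401. Nxf1 itself had 9, 7 and 11 mutant counts against 15, 10 and 20, and a count per gene does not show which allele was transcribed, so it checks no label.

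The sign of several values depended on the scaling. CPM are counts scaled to a common library total, here with TMM factors, which assume that most genes do not change. These factors ran from 0.720 to 1.06 for mutant libraries and from 1.11 to 1.23 for the others. With library totals alone, the median log2 fold change (mutant over wild type) of the 2823 genes tested moved from −0.06 to −0.53. Values on that scale are therefore read against −0.53.

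Ferritin light chain dominated this group of genes. The 10 members together took 1.93% ± 0.0571 of mutant counts outside the globins, against 2.00% ± 0.105 for wild type (SD, n = 3 each). Ftl1 supplied 85.8% of the members' counts, Fth1 9.95%, Snx3 2.28% and the other 7 the rest. Ftl1 ranked 16th by mean CPM among the 2823 genes tested, and 12th when globin and mitochondrially encoded genes were set aside. Fth1 ranked 45th, Snx3 105th, Tfrc 199th, Ncoa4 202nd and Slc40a1 553rd.

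Levels can be compared between genes only per length, as CPM per kb of the deposited gene length. In wild type this was 1666 ± 136 for Ftl1, 252 ± 44.9 for Fth1 and 32.5 ± 2.60 for Snx3 (SD, n = 3 each). Tfrc followed with 5.37 ± 3.31 and Ncoa4 with 5.06 ± 0.713, which did not differ beyond the spread of Tfrc. Slc40a1 had 0.986 ± 0.164. Ireb2 (0.0498 ± 0.00679), Steap3 (0.040 ± 0.00871), Slc11a2 (0.0377 ± 0.0390) and Aco1 (0.0323 ± 0.0372) came last, with overlapping spreads. In the mutants the order of the top 3 was the same, with 2297 ± 435, 240 ± 17.5 and 41.4 ± 9.29 CPM per kb for Ftl1, Fth1 and Snx3.

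**Figure D1:**
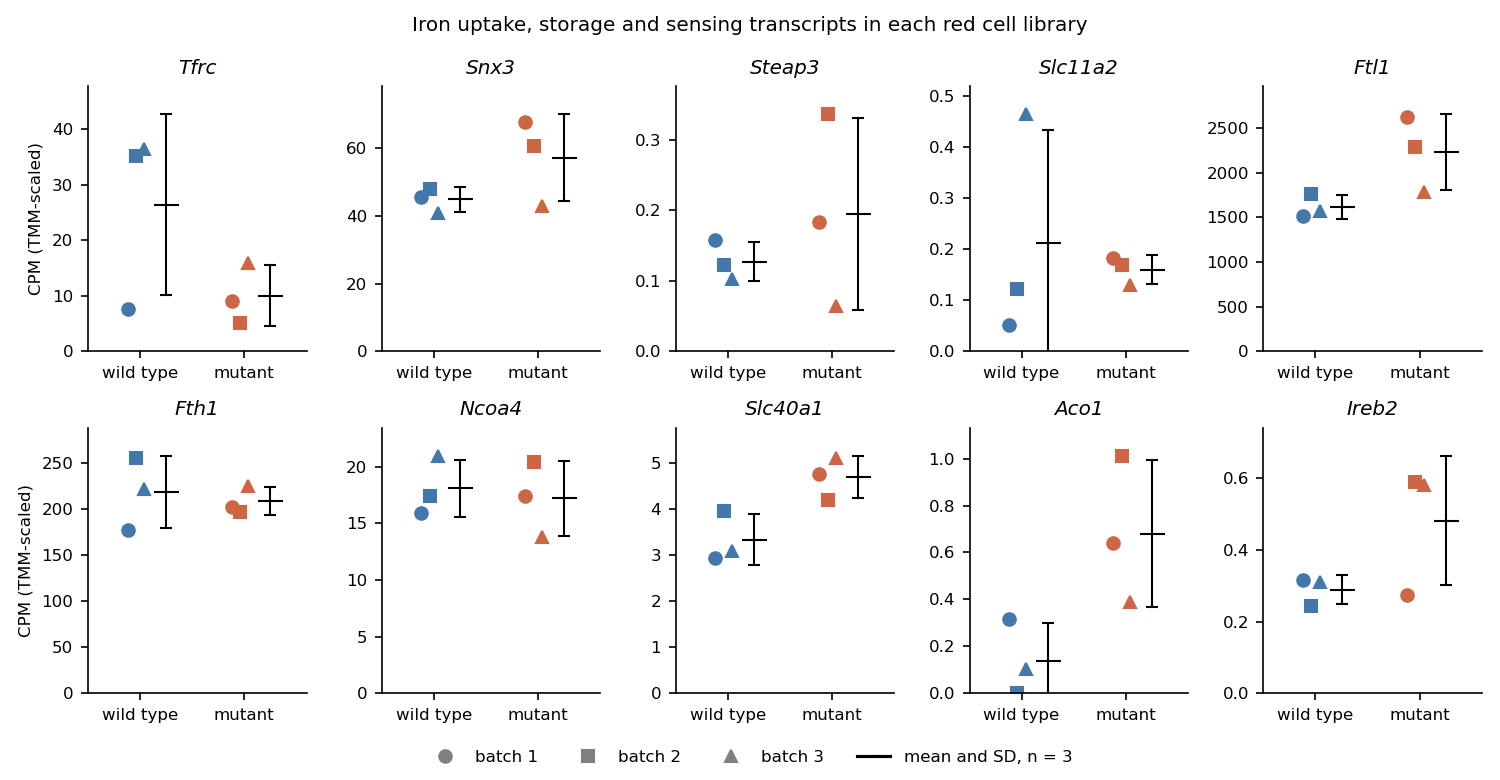
TMM-scaled CPM of the 10 iron genes in each library (linear axes from 0, with a separate range per gene). Symbols mark the batch, and bars give the mean and SD of 3 libraries, cut at 0 where they would pass below it. Tfrc was low in wild-type library 1 (7.62 CPM) and at 35.2 and 36.4 CPM in the other wild-type libraries. Ftl1, Slc40a1 and Aco1 did not overlap between genotypes on this scale. In that direction 12.3% of all genes tested did not overlap, and Aco1 was not among the genes tested.

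Of the 10 members, 6 passed the filter on low counts. The edgeR quasi-likelihood test called 0 of the 6 between genotypes (Benjamini-Hochberg adjusted p under 0.05), where 7.05% of all genes tested were called. At an unadjusted p under 0.05 there were 2, Ftl1 and Slc40a1. The share of all genes under this unadjusted threshold was not counted, so the percentages here are for adjusted p only. The count of called members was also 0 with DESeq2 (6.66% of all genes called) and with library totals (12.8%). At an unadjusted p under 0.05 these fits had 1 and 2 members, which cannot be set against those shares. Their median log2 fold change was 0.14, against −0.06 for all genes tested, and −0.35 against −0.53 with library totals. In TMM-scaled CPM 2 of the 6 were higher in every mutant than in any wild-type mouse, where 12.3% of all genes were, and 0 were lower (11.1% of all genes). With library totals 0 were higher (5.31%) and 2 were lower (31.5%). Steap3, Slc11a2, Aco1 and Ireb2 had too few counts for that test and are described by their counts.

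Tfrc (Entrez gene 22042, chromosome 16, 32608896 to 32632794 in GRCm38) encodes the transferrin receptor, which brings iron-loaded transferrin into the cell. Mutants 1 to 3 gave 100, 60 and 246 counts, and wild-type mice 1 to 3 gave 145, 577 and 706. The 2 highest libraries were wild type, but wild-type library 1 lay among the mutants, so the groups overlapped. TMM-scaled, these were 10.03 ± 5.47 and 26.4 ± 16.3 CPM (SD, n = 3 each), and the highest library was 7.21-fold above the lowest. The log2 fold change was −1.38 (SE 0.79), which did not pass (edgeR adjusted p = 0.481). It was 0.27, −2.80 and −1.20 within batches 1 to 3, so batch 1 went the other way on this scale. With library totals the value was −1.77 (adjusted p = 0.213), and within batches −0.51, −3.32 and −1.41.

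Single libraries moved this value in both directions. Without wild-type library 1 the log2 fold change of Tfrc was −1.82 (edgeR adjusted p = 0.0515), and without mutant library 3 it was −1.83 (adjusted p = 0.432). Without mutant library 2 it was −1.03 and without wild-type library 3 it was −1.08 (edgeR adjusted p = 0.696 and 0.742). Leaving out batch 1 gave −1.72 (adjusted p = 0.158) and leaving out batch 2 gave −0.77 (adjusted p = 0.805). Over 17 alternatives the value ran from −1.83 to −0.77 and the adjusted p from 0.0515 to 0.941, so its sign held and no alternative called it. Wild-type library 1 was also the one with pancreas transcripts and with the most genes at 10 or more counts, and their part in the Tfrc value was not tested.

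Tfrc varied more within a genotype than its abundance would give. Its coefficient of variation was 54.5% among mutants and 61.7% among wild-type mice, where counting alone would give 8.60% and 4.58%. The biological coefficient of variation estimated by edgeR, the spread between animals beyond counting, was 0.628 for Tfrc against a trend of 0.189 for genes of its abundance. By the ratio of the 2 values it ranked 16th of 2823 genes. The other 5 tested members (Snx3, Fth1, Ftl1, Ncoa4 and Slc40a1) had 0.162 to 0.189, which was 0.874 to 0.989 of the trend.

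**Figure D2:**
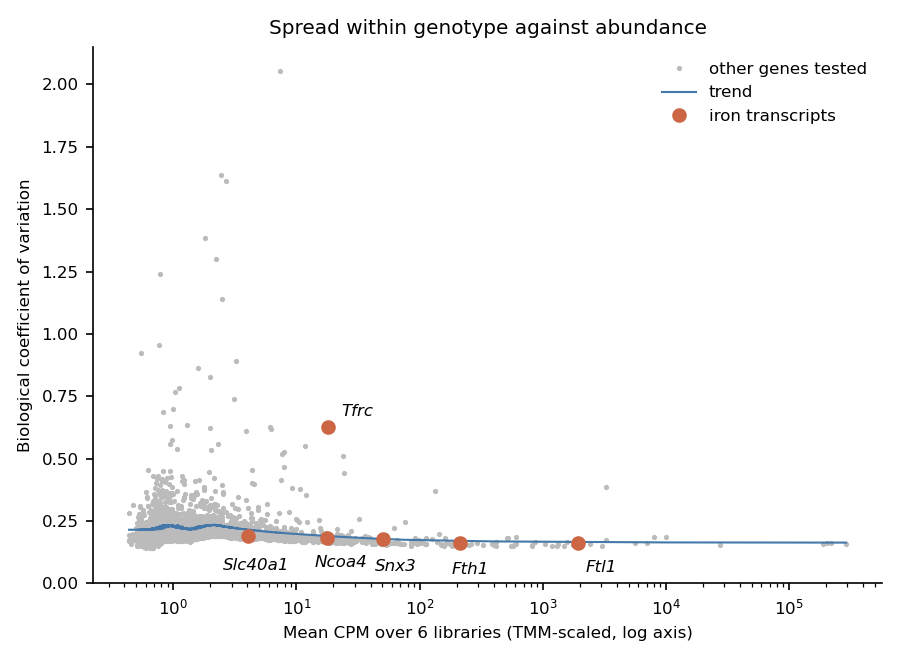
Biological coefficient of variation of each of 2823 genes tested (grey) against mean CPM on a log axis, with the fitted trend (line) and the 6 tested iron genes (orange). Tfrc stands at 0.628, and the other 5 (Snx3, Fth1, Ftl1, Ncoa4 and Slc40a1) lie between 0.162 and 0.189.

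Markers of other blood cells and of dividing precursors were counted beside Tfrc, since both can carry the receptor. The 13 precursor markers summed to 135, 128 and 137 mutant counts against 170, 224 and 290, with Mki67, a proliferation marker, giving 85 to 92 against 124 to 220. Kit, a receptor of early progenitors, had 4, 3 and 4 counts against 0, 9 and 2. The 12 lymphocyte markers summed to 117, 133 and 113 mutant counts against 263, 238 and 486, led by Cd74 (50 to 68 against 96 to 212). The lymphocyte sums were lower in every mutant in counts and in TMM-scaled CPM (7.29 to 11.2 against 13.8 to 25.04). The precursor sums separated in counts and overlapped in TMM-scaled CPM (8.84 to 12.4 against 8.93 to 14.9). Of all genes tested, 11.1% were lower in the mutants without overlap with TMM and 31.5% with library totals. Of 7 lymphocyte markers tested, 2 were called lower (1.06% of all genes tested were) and 5 were not called. Neutrophil markers (12 genes) overlapped between genotypes, at 99.0 to 142 against 95.7 to 127 TMM-scaled CPM. Platelet markers (11 genes) overlapped as well, at 7.31 to 20.9 against 9.56 to 18.1. The part of any of these markers in the Tfrc value was not tested. In bulk RNA, fewer cells of a type and less RNA per cell cannot be told apart.

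Snx3 (Entrez gene 54198, chromosome 10, 42502054 to 42535369) encodes a sorting nexin that returns the transferrin receptor from endosomes to the surface. The mutants gave 738, 721 and 663 counts against 866, 785 and 793. On TMM-scaled CPM it was 57.0 ± 12.8 against 44.7 ± 3.58 (SD, n = 3 each) and the groups overlapped, the third mutant lying among wild type. The log2 fold change was 0.35 (SE 0.18, edgeR adjusted p = 0.318), and −0.18 (adjusted p = 0.369) with library totals. Without mutant library 3, where 7.48% of genes were called higher, it passed the test (0.60, adjusted p = 0.0310). Unlike Tfrc, it differed by only 1.65-fold between the highest and lowest library.

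Steap3, the endosomal ferric reductase, and Slc11a2, the transporter (DMT1) that moves ferrous iron out of the endosome, were at the detection limit. Steap3 (Entrez gene 68428, chromosome 1, 120226414 to 120271081) had 2, 4 and 1 mutant counts against 3, 2 and 2. The ratio of its TMM-scaled totals was 1.43 (95% exact interval 0.428 to 4.78, counting error only). Slc11a2 (Entrez gene 18174, chromosome 15, 100387898 to 100424209) had 2, 2 and 2 against 1, 2 and 9, a ratio of 0.716 (0.220 to 2.06). The highest count, 9, came from wild-type library 3, and a gene on the opposite strand, Gm5475, overlaps its exons. No difference between genotypes was detectable at this depth for either gene.

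Ftl1 (Entrez gene 14325, chromosome 7, 45457944 to 45459886) encodes the light chain that helps iron to mineralise inside ferritin. Counts ran close together, at 28594, 27193 and 27580 for the mutants against 28887, 28937 and 30392. As a share of all counts it ran only from 0.178% (95% Wilson interval 0.176 to 0.180) in mutant library 2 to 0.197% (0.194 to 0.199) in wild-type library 2. TMM-scaled, it was 2228 ± 422 and 1616 ± 132 CPM (SD, n = 3 each), without overlap. The log2 fold change was 0.46 (SE 0.17, edgeR adjusted p = 0.129), and within batches 0.79, 0.37 and 0.19. With library totals it was −0.05 (adjusted p = 0.613) and the groups overlapped. Ftl1 passed the test without mutant library 3 (0.68, adjusted p = 0.00320) and without batch 3 (0.66, adjusted p = 0.0194), where 7.48% and 7.06% of genes were called higher.

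Fth1 (Entrez gene 14319, chromosome 19, 9980600 to 9985111) encodes the heavy chain, which oxidises iron as it enters the shell. Mutants 1 to 3 had 2209, 2341 and 3493 counts, against 3382, 4183 and 4300. The third mutant lay above the first wild-type library, so the groups overlapped. TMM-scaled, the levels were 208 ± 15.2 and 218 ± 38.9 CPM (SD, n = 3 each), with a log2 fold change of −0.07 (SE 0.16, edgeR adjusted p = 0.888). With library totals it was −0.53, the same as the median of all genes, and just missed the threshold (adjusted p = 0.0519). From lowest to highest the libraries came in nearly the same order by Fth1 count as by Tfrc count, with only the first and second mutants exchanged. That holds for raw counts, and in TMM-scaled CPM the orders differed further. How many other genes share this order was not counted, so it is not read as particular to Fth1 and Tfrc.

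The balance of the 2 chains can be read within a library, where scaling has no part. Per Ftl1 count there were 0.0773, 0.0861 and 0.127 Fth1 counts in mutants 1 to 3, against 0.117, 0.145 and 0.141. The mutant ratio was lower in each batch, with log2 differences of −0.60, −0.75 and −0.16. The mean difference was −0.50, and the groups overlapped (exact two-sided permutation test, p = 0.2, n = 3 each, adjusted p = 0.24 over 6 ratios). The smallest p this design allows is 0.1. Without mutant library 3 the difference was −0.71 and without mutant library 1 it was −0.36. With library totals Ftl1 stood at −0.05 and Fth1 at −0.53, where the median of all genes tested was −0.53. A ratio to Ftl1 near −0.50 is thus about what the median gene would give, and is not particular to Fth1.

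Both chains have processed copies in the genome. Among rows whose symbol begins with Fth or Ftl, Ftl1-ps2 had 25, 18 and 39 mutant counts against 22, 19 and 24, and Fthl17a had 1 count in all. Adding these to their parent genes left the difference in the ratio at −0.50 (exact permutation p = 0.2, n = 3 each). How reads shared with such copies were assigned is not given in the sources used here, so single chain counts are uncertain to that extent. In the annotation a transcript of unclear status, Gm10252, lies on the opposite strand over Ftl1 exons, and a microRNA, Gm22133, on the same strand.

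Ncoa4 (Entrez gene 27057, chromosome 14, 32159879 to 32179855) encodes the receptor that carries ferritin to the lysosome so that its iron can be released. In counts, at 190, 243 and 214 against 304, 285 and 406, every mutant lay below every wild-type library. On TMM-scaled CPM the groups overlapped, at 17.2 ± 3.31 and 18.1 ± 2.55 (SD, n = 3 each), and the log2 fold change was −0.07 (SE 0.19, edgeR adjusted p = 0.893). With library totals it was −0.59 (adjusted p = 0.0573), close to the median of all genes. On that scale 31.5% of all genes tested were lower in the mutants without overlap.

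The other tested members were also set against Ftl1 in the same library, ratios chosen after seeing the data. Ncoa4 was the member among these and Fth1 whose ratio did not overlap. With library totals, where Ftl1 stood at −0.05 and the median of all genes at −0.53, 31.5% of all genes tested were lower without overlap. The share of all genes separated in this way relative to Ftl1 was not counted, so the separation is not read as particular to Ncoa4. Per Ftl1 count there were 0.00664, 0.00894 and 0.00776 Ncoa4 counts in the mutants, against 0.0105, 0.00985 and 0.0134. The log2 difference was −0.53 (exact two-sided permutation test, p = 0.1, the smallest possible, n = 3 each, adjusted p = 0.24 over 6 ratios). It was −0.66, −0.14 and −0.78 within the batches. The ratio of Tfrc to Ftl1 had the widest log2 difference of these, −1.69, with overlap (p = 0.2 by the same exact permutation test). It was −2.39 without wild-type library 1 and −1.25 without mutant library 2. That of Snx3 to Ftl1 was −0.12 (exact permutation p = 0.2) and that of Slc40a1 to Ftl1 0.05 (exact permutation p = 1).

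**Figure D3:**
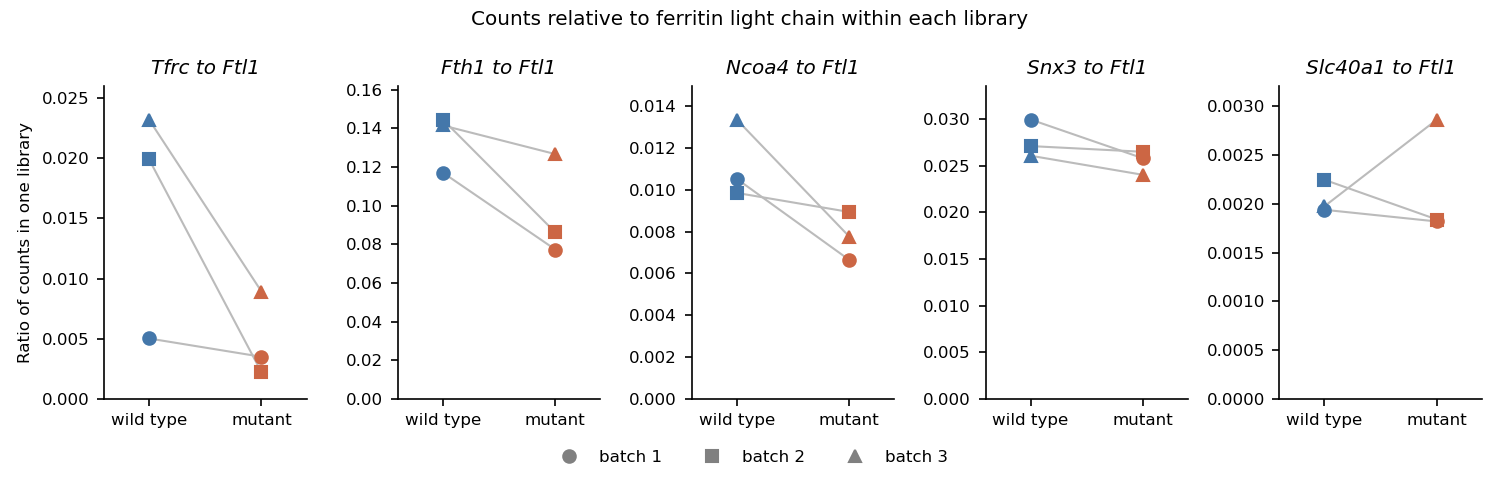
Counts of Tfrc, Fth1, Ncoa4, Snx3 and Slc40a1 as a ratio to Ftl1 counts in the same library, with lines joining the mutant and wild-type library of a batch (linear axes from 0). The Tfrc, Fth1, Ncoa4 and Snx3 ratios are lower in the mutant of every batch. Of the genes shown, the genotypes separate without overlap for Ncoa4 only. With library totals 31.5% of all genes tested were lower in the mutants without overlap.

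Slc40a1 (Entrez gene 53945, chromosome 1, 45908070 to 45926532) encodes ferroportin, the exporter of cellular iron, known from macrophages, liver and gut as well as red cells. The mutants gave 52, 50 and 79 counts against 56, 65 and 60, which is 181 in either group. TMM-scaled, they were 4.69 ± 0.452 and 3.33 ± 0.553 CPM (SD, n = 3 each), without overlap, as were 12.3% of all genes tested in the direction of higher mutants. The log2 fold change was 0.50 (SE 0.23), which did not pass (edgeR adjusted p = 0.254), and 0.03 (adjusted p = 0.938) with library totals. Its spread in the mutants, 9.64% of the mean, was below the 12.9% that counting alone would give.

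Macrophage markers (16 genes, 5 to 13 of them seen in a library) summed to 317, 161 and 319 mutant counts against 225, 155 and 252, and to 13.5 to 29.0 against 9.46 to 13.0 in TMM-scaled CPM. Most of this was Lyz2, which neutrophils also carry (253, 114 and 232 against 152, 119 and 196). Among genes of tissue macrophages, Marco and C1qb were at 0 in all libraries, Clec4f and Vsig4 at 0 in wild type and at most 4 in a mutant, and Cd5l had 2 to 5 mutant counts against 0 or 1. Their part in the Slc40a1 value, and that of the hepatocyte markers above, was not tested. Leaving the hepatocyte and pancreas lists out of the comparison, an alternative added after seeing the data, gave 0.50 (edgeR adjusted p = 0.249). It removed the marker genes only and kept all Slc40a1 counts, so it cannot show the part of those cells.

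Aco1 and Ireb2 encode iron regulatory proteins 1 and 2, the former also acting as the cytosolic aconitase when it holds an iron-sulphur cluster. Aco1 (Entrez gene 11428, chromosome 4, 40143265 to 40199009) had 7, 12 and 6 mutant counts against 6, 0 and 2. The second mutant was highest, and the third mutant and the first wild-type library had the same count. In TMM-scaled CPM the groups did not overlap, at 0.679 ± 0.313 and 0.139 ± 0.161 (SD, n = 3 each, exact two-sided permutation p = 0.1). In that direction 12.3% of the genes tested did not overlap, and Aco1 was not among those tested. The ratio of TMM-scaled totals was 4.47 (95% exact interval 1.96 to 11.5, counting error only), and 3.19 (1.39 to 8.18) with library totals. In the comparison without a filter on low counts, where 2.33% of genes were called higher, Aco1 was the 1 member called (log2 fold change 2.21, SE 0.65, edgeR adjusted p = 0.0248). The main comparison did not test it. Hepatocyte marker sums were 2131 to 4652 in the mutants against 116, 3 and 3, and their part in this value was not tested.

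Ireb2 (Entrez gene 64602, chromosome 9, 54862658 to 54912534) had 3, 7 and 9 mutant counts against 6, 4 and 6, with overlap. The ratio of its TMM-scaled totals was 1.70 (95% exact interval 0.828 to 3.53). Without the filter its log2 fold change was 0.79 (edgeR adjusted p = 0.739). Per Ireb2 count there were 2.33, 1.71 and 0.667 Aco1 counts in the mutants, against 1, 0 and 0.333. The mean ratio was 1.57 ± 0.842 against 0.444 ± 0.509, with overlap (exact permutation p = 0.2, n = 3 each, adjusted p = 0.24 over 6 ratios). The difference of 1.13 was 0.746 without mutant library 1 and 1.58 without mutant library 3.

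**Figure D4:**
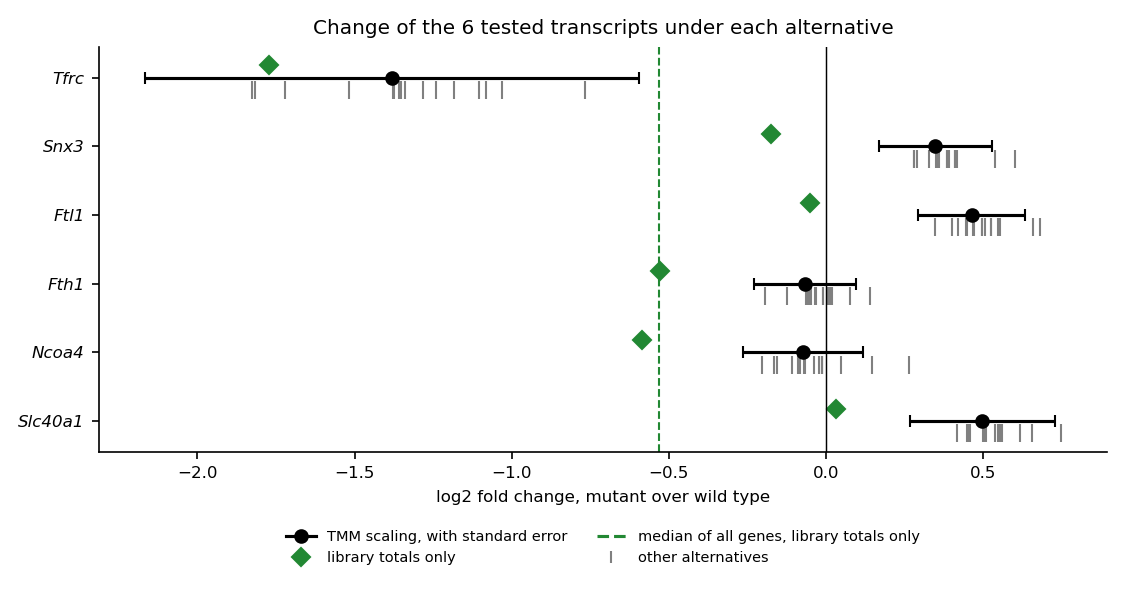
Log2 fold change of the 6 tested iron genes, mutant over wild type, with TMM scaling and its standard error (black), with library totals only (green diamonds) and under the other alternatives (grey ticks). The dashed line is the median of all genes with library totals, −0.53. Tfrc stays below 0 throughout. Snx3 and Ftl1 are above 0 with TMM, and with library totals they are just below 0 but above the dashed line.

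Iron genes outside the members were taken from a list of 69, of which 19 were tested. Of these, 2 were higher (5.99% of all genes tested were), 0 lower (1.06%) and 17 not called, with a median log2 fold change of 0.16, against −0.06 for all genes, and −0.32 against −0.53 with library totals. Both were transcripts best known from liver. Both passed the filter on low counts only with the help of mutant libraries, so the filter itself favoured a call of higher over lower. The split between higher and lower is therefore no result on its own. Trf, transferrin, the ligand of the receptor, had 189, 427 and 242 mutant counts against 2, 18 and 12 (log2 fold change 5.26, SE 0.68, edgeR adjusted p = 0.00752). Cp, ceruloplasmin, the plasma ferroxidase that works with ferroportin, had 13, 26 and 13 counts against 0 in each wild-type library. Cp was called higher (edgeR adjusted p = 3.05e-05). Set against a floor of 3 counts over the wild-type group, its TMM-scaled total was 24.8-fold higher, and 17.7-fold with library totals. Error in the mutant counts and spread between animals are not part of these folds.

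Without the filter, where 2.33% of all genes were called higher, 5 of the list were, Trf and Cp and another 3 iron genes best known from liver, named after their values were seen. Hamp, which encodes hepcidin, the hormone that leads to the loss of ferroportin, had 37 mutant counts in all against 0 (edgeR adjusted p = 1.14e-10, no filter). Tmprss6, a protease that restrains hepcidin, had 32 and 1 (adjusted p = 1.68e-07, edgeR), and Tfr2, the second transferrin receptor, 29 and 8 (adjusted p = 0.00485, edgeR). Beside these genes the hepatocyte marker sums were 2131 to 4652 in the mutants against 116, 3 and 3, and their part was not tested. Among wild-type libraries the first had the highest hepatocyte sum, from 7 of the 40 markers, where 38 or 39 were seen in each mutant. Trf had 2 counts and Cp 0 in that library, and whether these values go together was not tested.

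The 6 most abundant iron genes of the list, with roles in heme synthesis, heme transport and iron-sulphur assembly, were not called. Slc25a37, mitoferrin, which imports iron into mitochondria, had 262 ± 47.5 and 184 ± 3.41 CPM (log2 fold change 0.51, SE 0.16, edgeR adjusted p = 0.0691), and −0.01 with library totals. Alas2, the first enzyme of heme synthesis, whose message also carries an iron-responsive element, had 0.41 and −0.10 on these scales (edgeR adjusted p = 0.201 and 0.163). Fech, which inserts iron into heme, had 0.37 (adjusted p = 0.211), and the iron-sulphur assembly factors Isca1 and Iscu 0.35 and 0.16 (edgeR adjusted p = 0.268 and 0.696). Slc48a1, a heme transporter, had 0.20 (edgeR adjusted p = 0.561). With library totals Fech, Isca1, Iscu and Slc48a1 were at −0.14, −0.17, −0.32 and −0.30, so the sign of all these turned with the scaling. All 6 stayed above the median of all genes tested, −0.06 with TMM and −0.53 with library totals. Slc25a37, Alas2, Fech and Isca1 passed without mutant library 3, where 7.48% of all genes were called higher, with 0.73, 0.61, 0.55 and 0.60. They also passed without batch 3 (7.06%), with 0.74, 0.62, 0.57 and 0.58.

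Pcbp2, a chaperone that hands iron to ferritin, had the lowest log2 fold change of the iron genes named outside the members. The mutants gave 55, 42 and 52 counts against 112, 109 and 136, without overlap on either scale. In that direction 11.1% of all genes tested did not overlap with TMM and 31.5% with library totals. The log2 fold change was −0.72 (SE 0.23), which missed the threshold (edgeR adjusted p = 0.0645). It passed with the batch as a term (−0.73, adjusted p = 0.0425), without batch 1 (−0.94, adjusted p = 0.0421) and with library totals (−1.23, adjusted p = 0.00487). In these fits 60, 36 and 245 genes in all were called lower, and −1.23 is read against the median of −0.53. DESeq2 did not call it (adjusted p = 0.201, and 0.589 with the batch as a term). Over the other alternatives with edgeR it did not pass either, with −0.47 (adjusted p = 0.462) without batch 3 as the value nearest 0.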

How the data were processed

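Polyadenylated RNA of purified red cells was sequenced as 1 library per mouse (Illumina TruSeq RNA v2, per the labels' protocols). The authors deposited raw counts per Entrez gene with a gene length, 1 file per library. CASAVA 1.8.2, Subread, featureCounts and the build mm10 are named in the submitters' processing notes. No annotation, strand or multi-mapping setting is given in the sources used here, so reads of overlapping or antisense genes cannot be told apart.

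Symbols and positions came from a RefSeq table of the same build (GRCm38.p6) and 18 from GENCODE. Of 27179 genes, 25293 had a symbol, and all list entries but Ahsp matched. The main test was edgeR 4.0.16 in R 4.3.3 (robust quasi-likelihood, TMM, filterByExpr, genotype only), over 2823 genes. Standard errors are the fold change over the square root of F. The groups were genotypes as labelled, and each mouse was 1 replicate. Single ratios were compared by exact permutation. The planned log2 ratio of Aco1 to Ireb2 could not be formed, because Aco1 had 0 counts in 1 library, and the linear ratio was used. Depth was 14636739 to 15790336 counts per library. A count of 0 allowed up to 3 counts, 0.190 to 0.205 CPM of the total. Intervals cover counting error only, since reads had no molecular identifiers. The tests were checked on data simulated at the trend of spread for genes of each abundance, which does not cover the wider spread of Tfrc. Alternatives were RLE scaling, library totals, globin removal, no filter, DESeq2 1.42.0, a batch term, and each library or batch left out.

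The batch labels pair the libraries. Deviations of same-batch libraries from their group means correlated at −0.10, −0.07 and −0.06. The members and lists were chosen with earlier results of these data known. The rule for named genes took the 10 members, called iron genes, the 6 iron genes with the smallest p and the 6 most abundant, ferritin copies, the 2 most abundant markers of other cells, and Nxf1.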

Additional observations from a re-analysis of the deposited data

How the results depend on the processing

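The number of genes lower in the mutants, 30 with TMM, was 19 with RLE size factors, 245 with library totals, 82 without a filter, 11 with DESeq2, 60 with the replicate block, 3 with DESeq2 and the replicate block, 19 without batch 2 and 3 without batch 3, and 8 to 77 with a single library left out. The number higher, 169, was 382 without a filter. Higher members of the iron genes, 0 in the main comparison, were 1 without a filter (Aco1), 1 without batch 3 (Ftl1) and 0 to 2 with a library left out (Ftl1 and Snx3 without mutant library 3). Other iron genes higher, 2 at first, were 5 without a filter, 8 without batch 3 and 2 to 8 with a library left out, and 1 was lower with library totals, with the replicate block and without batch 1 (Pcbp2 each time). With library totals the log2 fold change turned to −0.18 for Snx3, −0.052 for Ftl1, −0.010 for Slc25a37, −0.10 for Alas2, −0.14 for Fech, −0.30 for Slc48a1, −0.17 for Isca1 and −0.32 for Iscu. That of Fth1, −0.07, was 0.0047 with DESeq2 and the replicate block, 0.14 without batch 2 and −0.19 to 0.077 with a library left out. That of Ncoa4, −0.07, was 0.27 without batch 3 and −0.17 to 0.15 with a library left out. The log2 difference in the ratio of Slc40a1 to Ftl1, 0.05, was −0.16 to 0.16 with a library left out. The cause of these changes was not tested. The replicate block ended no call among the named genes and gave a new one to Pcbp2 alone. Of 102 values of the 6 tested members under 17 alternatives, 89 kept direction and side of the threshold, 10 changed sign and 3 passed the threshold. The depth limits Steap3, Slc11a2, Aco1 and Ireb2, with 1 to 12 counts in a library or none, to wide counting intervals.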
